A study of Mus musculus with 9 samples.

Results

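The BTB-domain adaptors of cullin 3 are the substrate receptors of one class of ubiquitin ligase, and the results below describe the transcripts of 40 mouse genes that encode such proteins. The genes were chosen by name, as Klhl, Kctd, Btbd, Rhobtb and Spop-type BTB genes together with Enc1, Ivns1abp, Kbtbd2, Ibtk and Tnfaip1. Of the 40, 37 had at least 1 probe set assigned to that gene alone, and 36 were bright enough to be tested, against 10613 genes tested of 18193 with such a probe set in the whole series. The cells were NIH 3T3, a mouse fibroblast line, transduced with a retroviral vector that carried a short hairpin RNA (shRNA) and harvested after 5 days. Cells with Ube2m shRNA, cells with Ube2f shRNA and cells with control shRNA were each profiled as 3 biological replicates, 1 Affymetrix array per replicate. The proteins UBE2M and UBE2F are the conjugating (E2) enzymes of the ubiquitin-like protein NEDD8. According to the growth label of every sample, the controls included, the cells express Ube2f. It does not say whether this means the cells' own gene or an added copy.

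In these ligases the amino-terminal part of cullin 3 binds the BTB domain of an adaptor, and a second domain of the adaptor (kelch repeats, a MATH domain or another fold) holds the protein to be ubiquitinated. The carboxy-terminal part of cullin 3 binds the RING protein RBX1, and attachment of NEDD8 to cullin 3 activates the complex. UBE2M works with RBX1 and serves cullin 3 among other cullins, whereas UBE2F works with RBX2 and serves cullin 5. In fibroblasts, cullin 3 ligases are known for their part in actin organisation, mitosis, the oxidative stress response and Hedgehog signalling. The design asks how the transcripts of these adaptors stand 5 days after shRNA to either NEDD8 E2, and whether both shRNAs give the same levels.

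The Ube2f transcript had signals of 135, 118 and 144 on the arrays of the Ube2f shRNA group, 3029, 3140.0 and 2700.4 on those of the Ube2m shRNA group, and 2367, 2492 and 2757 on those of the control shRNA group. The reduction of Ube2m itself was not checked here, because no probe set was assigned to that gene alone. The authors' scaling left a trimmed mean of 500 on each array, and the median signal was 53.3 to 58.5 on the arrays of replicates 1 and 2. On the arrays of replicate 3 the median was 73.2 (Ube2m shRNA), 73.5 (Ube2f shRNA) and 64 (control shRNA), so values of replicate 3 are also given apart. Beta-actin signal at the 3′ end over that at the 5′ end, a sign of RNA integrity, was 1.82 on the array of control replicate 1 and 1.24 to 1.35 on the others. A gene counted as bright enough to test when its mean log2 value over the 9 arrays reached that of the median non-control probe set, which corresponds to a signal of 53.8 and is called the low-signal level here. All 8 fibroblast markers were above it, whereas all 5 endothelial and all 4 adipocyte markers with a probe set were below it. The epithelial list (3 of 6 below the low-signal level, namely Krt5, Krt8 and Krt18) summed to 5696–6482 with Ube2m shRNA, 2683–4143 with Ube2f shRNA and 3227–5274 with control shRNA. The skeletal muscle list (5 of 7 below it: Myod1, Myog, Ckm, Myh3 and Tnnt3) summed to 1052–1252, 655–734 and 625–897 in the same groups. The macrophage list (3 of 6 below it: Cd68, Adgre1 and Ptprc) summed to 850–1080, 729–777 and 885–946. The part of these lists in the results below was not tested.

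The promoters of 4 of the adaptors whose transcripts passed the test against control cells, all but Kctd17 and Rhobtb1, are shown as context for those results. They run from 250 bases before the annotated start to 50 bases after it, 5′ to 3′ on the strand of the gene (RefSeq, GRCm38.p6). Capitals mark matches, on either strand, to the 6 motifs described next.
Klhl28: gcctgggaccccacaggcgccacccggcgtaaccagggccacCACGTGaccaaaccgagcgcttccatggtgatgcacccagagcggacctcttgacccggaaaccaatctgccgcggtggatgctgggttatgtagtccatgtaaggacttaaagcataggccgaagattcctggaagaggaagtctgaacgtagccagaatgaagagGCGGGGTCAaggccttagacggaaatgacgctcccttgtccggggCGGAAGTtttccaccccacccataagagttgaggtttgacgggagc
Spop: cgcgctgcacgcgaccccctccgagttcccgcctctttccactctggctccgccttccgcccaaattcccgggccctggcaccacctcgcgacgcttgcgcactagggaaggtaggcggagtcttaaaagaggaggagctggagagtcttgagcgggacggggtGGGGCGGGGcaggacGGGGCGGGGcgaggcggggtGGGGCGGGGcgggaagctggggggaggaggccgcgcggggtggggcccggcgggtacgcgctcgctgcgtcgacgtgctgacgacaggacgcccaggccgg
Klhl22: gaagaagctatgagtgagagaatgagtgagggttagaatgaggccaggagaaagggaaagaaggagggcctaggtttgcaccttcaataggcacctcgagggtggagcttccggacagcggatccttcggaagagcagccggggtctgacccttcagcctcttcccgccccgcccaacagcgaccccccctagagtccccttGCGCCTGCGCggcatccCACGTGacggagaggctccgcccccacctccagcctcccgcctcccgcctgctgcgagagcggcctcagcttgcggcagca
Kctd10: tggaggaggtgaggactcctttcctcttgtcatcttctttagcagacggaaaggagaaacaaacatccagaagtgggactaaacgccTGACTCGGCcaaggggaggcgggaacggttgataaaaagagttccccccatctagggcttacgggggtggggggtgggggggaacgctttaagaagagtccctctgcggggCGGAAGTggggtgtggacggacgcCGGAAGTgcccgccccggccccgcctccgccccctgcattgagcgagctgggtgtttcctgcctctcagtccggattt

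These windows lie at chr12:64965487-64965786, minus strand (Klhl28), chr11:95413833-95414132, plus strand (Spop), chr16:17759391-17759690, plus strand (Klhl22, the first of 2 promoters listed for it) and chr5:114380456-114380755, minus strand (Kctd10). The motifs searched were the antioxidant response element core TGACNNNGC, the E-box CACGTG, the motif of nuclear respiratory factor 1 (NRF1), the ETS motif CGGAAGT, the GC box GGGGCGGGG and the CRE TGACGTCA. The Klhl28 window held an antioxidant response element core, an E-box and an ETS motif. The Spop window held 3 GC boxes, the Klhl22 window an E-box and an NRF1 motif, and the Kctd10 window an antioxidant response element core and 2 ETS motifs. Promoters were listed for 31 of the 40 adaptors. Each of those 31 was counted by its first listed promoter. The antioxidant response element core was found in 5 (16.1%), the E-box in 5 (16.1%), the NRF1 motif in 5 (16.1%), the ETS motif in 7 (22.6%), the GC box in 10 (32.3%) and the CRE in 1 (3.23%). Over all 32851 promoters listed, from 27025 genes, the shares were 12.4%, 7.15%, 4.60%, 6.42%, 11.4% and 1.79% in the same order. Some genes enter these last shares with several promoters, so the units differ, and no difference was tested. A match describes the letters of the window and does not show that a factor binds there.

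With Ube2m shRNA, Spop rose and Klhl28 and Kctd17 fell. With Ube2f shRNA, Klhl22 and Rhobtb1 rose and Kctd10 fell. In this fit no adaptor was called against control cells with both shRNAs. Kctd10 was called with both when replicate number entered as a block or replicate 3 as a term, and Enc1 without control replicate 3 and with replicates 1 and 2 alone. Between the knockdowns, Btbd1 and Spop were higher and Klhl22, Klhl28, Kctd17 and Btbd2 were lower with Ube2m shRNA than with Ube2f shRNA. The 3 comparisons share arrays pairwise and are not independent of each other.

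The test was limma on log2(signal + 16), with Benjamini-Hochberg adjustment over all 10613 genes and a call at an adjusted p under 0.05. All log2 fold changes are on this scale, which understates the change of dim genes. Against control cells, 3 of 36 adaptors (8.33%) were called with Ube2m shRNA, 1 higher and 2 lower, where 9.71% of all genes tested were called (3.59% higher and 6.12% lower). With Ube2f shRNA 3 of 36 (8.33%) were called, 2 higher and 1 lower, where 5.19% of all genes were called (2.23% higher and 2.96% lower). Between Ube2m shRNA and Ube2f shRNA 6 of 36 (16.7%) were called, 2 higher and 4 lower, against 15.8% of all genes (6.37% higher and 9.38% lower). The adaptors were thus called about as often as genes in general with Ube2m shRNA and between the knockdowns, and the 8.33% with Ube2f shRNA stands for only 3 genes. The median log2 fold change of the 36 was -0.09 with Ube2m shRNA, -0.01 with Ube2f shRNA and -0.13 between the knockdowns. Over all genes tested it was -0.04, 0.01 and -0.04.

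The counts depended on single arrays and on the scaling. Leaving out 1 array at a time gave 2 to 5 calls with Ube2m shRNA, the 5 without control replicate 3, where Btbd2 and Enc1 were added. With Ube2f shRNA it gave 0 calls by limma without Ube2f replicate 1 (with 5 adaptors at an unadjusted p under 0.05), 5 without control replicate 3 (Btbd1, Enc1, Kctd10, Kctd21 and Rhobtb1), and 1 without control replicate 1 or 2, Ube2f replicate 2 or 3, or Ube2m replicate 1 or 2. Between the knockdowns it gave 5 to 7. After median centring of the arrays, 0 adaptors rose and 3 fell with Ube2m shRNA, the split was 0 and 0 with Ube2f shRNA (with 5 at an unadjusted p under 0.05), and 0 and 4 between the knockdowns. All genes tested then split into 124 higher and 401 lower (4.95% called) with Ube2m shRNA, 50 and 172 (2.09%) with Ube2f shRNA, and 356 and 512 (8.18%) between the knockdowns.

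Counted by whether all 3 arrays of one group lay above or below all 3 of the other, 13 adaptors had no overlap of Ube2m shRNA with control arrays, 3 of them higher and 10 lower. That is 36.1%, against 29.7% of all genes tested. For Ube2f shRNA against control it was 12 (9 higher and 3 lower), which is 33.3% against 23.2% of all genes. Between Ube2m shRNA and Ube2f shRNA it was 19 (5 higher and 14 lower), which is 52.8% against 34.4% of all genes. The members were chosen with results of these data known, so these shares are a description without a test. The RNA is from whole cultures, so fewer cells that express a gene and less RNA per cell cannot be told apart.

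**Figure D1:**
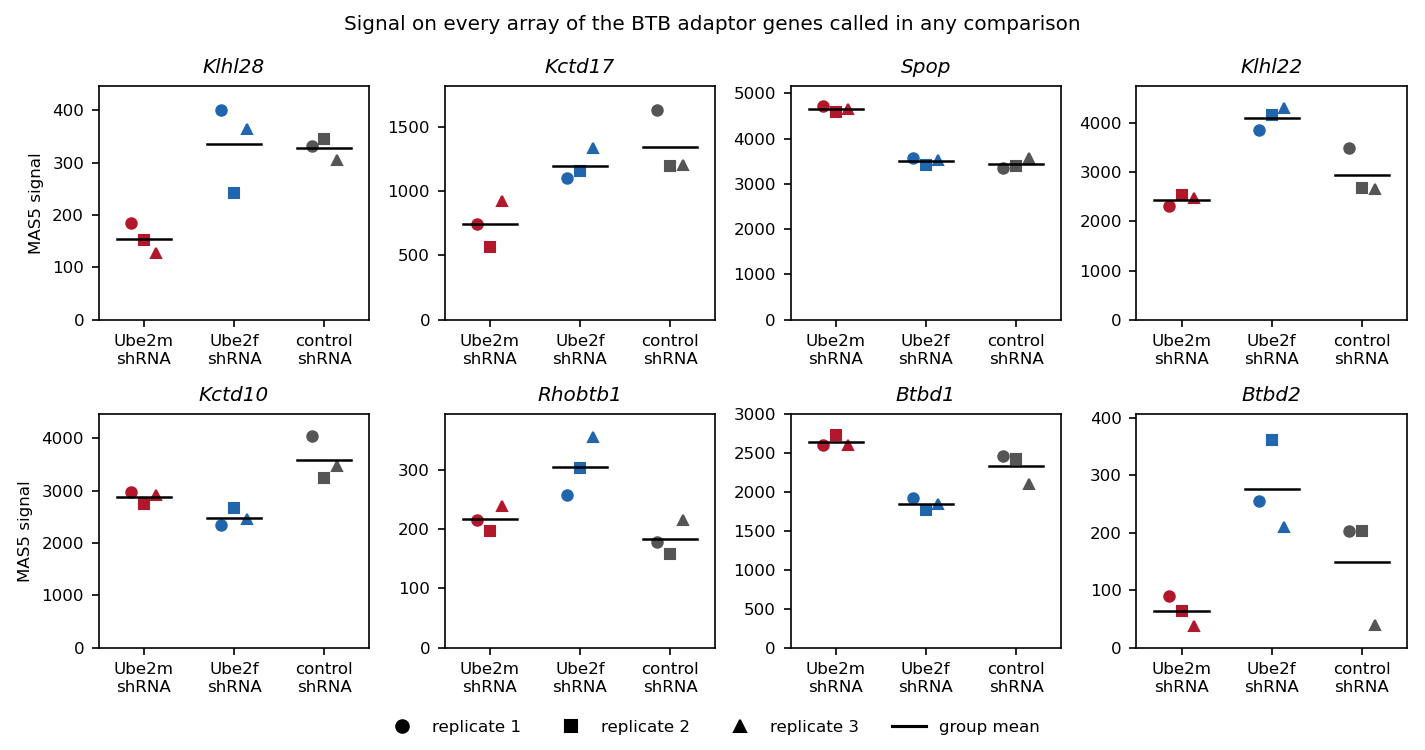
MAS5 signal (linear y axes from 0) of the 8 called adaptors on the 9 arrays, by Ube2m shRNA, Ube2f shRNA and control shRNA, with a marker shape for each replicate number and a line at the group mean. All 3 Ube2m shRNA arrays lie above the other 6 for Spop and below them for Klhl28 and Kctd17, and the 3 Ube2f shRNA arrays lie above the other 6 for Klhl22 and Rhobtb1.

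The MATH-BTB adaptor SPOP is the receptor through which cullin 3 ligases recognise BRD proteins, known from human cells, and Gli factors of the Hedgehog pathway. Spop gave signals of 4714, 4581 and 4659 with Ube2m shRNA, 3581, 3429 and 3531 with Ube2f shRNA and 3362, 3407 and 3562 with control shRNA. All 3 Ube2m shRNA arrays lay above the other 6. Spop rose with Ube2m shRNA against control (log2 fold change 0.43, SE 0.087, limma adjusted p = 0.00967), at 0.46 in replicates 1 and 2 and 0.39 in replicate 3. It was not called with Ube2f shRNA (log2 fold change 0.03, SE 0.087, limma adjusted p = 0.896), and it was higher with Ube2m shRNA than with Ube2f shRNA (log2 fold change 0.40, SE 0.087, limma adjusted p = 0.00785). A second Spop probe set gave a log2 fold change of 0.74 against control, again without overlap, and a dimmer one gave 0.26 with overlap. The call against control was lost without Ube2m replicate 1 (log2 fold change 0.42, adjusted p = 0.0528) and with arrays centred on their medians (log2 fold change 0.35, adjusted p = 0.255). Its call between the knockdowns was also lost with median centring (log2 fold change 0.38, adjusted p = 0.196).

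Spopl encodes the closest paralog of SPOP and was called in no comparison. Spopl averaged 321 ± 48.1 with Ube2m shRNA, 418 ± 23.5 with Ube2f shRNA and 387 ± 9.8 with control shRNA (SD, n = 3 each). Its log2 fold change against control was -0.27 with Ube2m shRNA (95% interval -0.57 to 0.04, limma adjusted p = 0.267) and 0.11 with Ube2f shRNA (95% interval -0.20 to 0.41, limma adjusted p = 0.729). Between the knockdowns it was -0.38 (95% interval -0.68 to -0.07, limma adjusted p = 0.0944). The 3 groups did not overlap, with the Ube2f shRNA arrays highest and the Ube2m shRNA arrays lowest. Dimmer Spopl probe sets gave 0.11 and -0.56 between the knockdowns, both with overlap.

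The kelch adaptors are the largest family here, with 18 members listed and 17 tested. Klhl28 was the only one of them called with Ube2m shRNA against control, and Klhl22 the only one called with Ube2f shRNA. Klhl28 gave signals of 184, 151 and 128 with Ube2m shRNA, 399.8, 242 and 365 with Ube2f shRNA and 331, 345 and 306 with control shRNA. Every Ube2m shRNA array lay below the other 6. Klhl28 fell with Ube2m shRNA to 47.2% of the control mean (log2 fold change -1.02, SE 0.20, limma adjusted p = 0.00777), at -0.95 on the log2 scale in replicates 1 and 2 and -1.17 in replicate 3. It was not called with Ube2f shRNA (log2 fold change 0.01, SE 0.20, limma adjusted p = 0.99) and was lower with Ube2m shRNA than with Ube2f shRNA (log2 fold change -1.03, SE 0.20, limma adjusted p = 0.00404).

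The Klhl28 calls held without each of the 9 arrays in turn, with adjusted p of at most 0.0353 against control and 0.0261 between the knockdowns. They rest on 1 of 4 probe sets, the brightest. The mean signal of the brightest was 272, and those of the other 3 were 207, 88.1 and 34.5. These 3 gave log2 fold changes of 0.34, 0.04 and 0.67 for Ube2m shRNA against control. The last of these was below the low-signal level on average, and its Ube2m shRNA arrays lay above all control arrays. With the mean of all 4 probe sets the fold change against control was 0.0061 (adjusted p = 0.991) and that between the knockdowns -0.30 (adjusted p = 0.457). The fall was seen on that probe set and not on the other 3.

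KLHL22 recognises PLK1 and DEPDC5 in human cells. Klhl22 gave signals of 2313, 2535 and 2471 with Ube2m shRNA, 3849.6, 4162 and 4303 with Ube2f shRNA and 3502, 2673 and 2666 with control shRNA. The 3 groups did not overlap: the Ube2f shRNA arrays were highest, then the control arrays, then the Ube2m shRNA arrays. Klhl22 rose with Ube2f shRNA against control (log2 fold change 0.49, SE 0.12, limma adjusted p = 0.0338), at 0.39 in replicates 1 and 2 and 0.69 in replicate 3. With Ube2m shRNA it was not called against control (log2 fold change -0.26, SE 0.12, limma adjusted p = 0.197). It was lower with Ube2m shRNA than with Ube2f shRNA (log2 fold change -0.75, SE 0.12, limma adjusted p = 0.00114), at -0.72 in replicates 1 and 2 and -0.80 in replicate 3.

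The difference in Klhl22 between the knockdowns held without each of the 9 arrays in turn (adjusted p at most 0.00843). Its rise against control was lost without any one of 7 arrays, all but control replicate 1 and Ube2m replicate 3, with log2 fold changes of 0.42 to 0.53 and adjusted p of 0.0544 to 0.105 in those fits. Median centring also ended it (log2 fold change 0.42, adjusted p = 0.296). The second Klhl22 probe set averaged a signal of 6.7, far below the low-signal level, and averaging it in ended both calls (log2 fold change 0.26, adjusted p = 0.493 against control, and log2 fold change -0.30, adjusted p = 0.321 between the knockdowns).

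Klhl7, whose human counterpart is mutated in a form of retinitis pigmentosa, came closest to a call among the other kelch adaptors. Its signals were 749, 910.5 and 1054 with Ube2m shRNA, 1286, 969.5 and 1432 with Ube2f shRNA and 1127, 1311 and 1353 with control shRNA. The Ube2m shRNA arrays lay below the control arrays and overlapped the Ube2f shRNA arrays. Its log2 fold change against control was -0.48 with Ube2m shRNA (limma adjusted p = 0.0805) and -0.05 with Ube2f shRNA (limma adjusted p = 0.896). It passed the threshold with Ube2m shRNA when arrays were centred on their medians (log2 fold change -0.57, adjusted p = 0.0499). It also passed with replicate number as a block, with replicate 3 as a term and with replicates 1 and 2 alone. A second probe set gave -0.18.

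The remaining 14 tested kelch adaptors were called in no comparison. Among the actin-associated ones, Klhl2 averaged 1103 ± 37.3 with Ube2m shRNA, 1004 ± 156 with Ube2f shRNA and 1038 ± 156 with control shRNA, and Enc1 5753 ± 30.5, 5914 ± 56.9 and 4909.9 ± 1033 in the same groups (SD, n = 3 each). Ivns1abp, which encodes a protein that binds an influenza virus protein, had log2 fold changes of -0.03 with Ube2m shRNA and -0.19 with Ube2f shRNA. With replicates 1 and 2 alone it was called with Ube2f shRNA and between the knockdowns, where replicate 3 had the opposite sign. Dimmer probe sets of these genes differed in part. One of Ivns1abp gave 0.65 against control and 0.65 against Ube2f shRNA, both without overlap. A second Klhl2 probe set gave 0.51 with Ube2m shRNA, also without overlap. A second Enc1 probe set gave 0.29 with Ube2m shRNA and 0.25 with Ube2f shRNA, above all control arrays in both. Single probe sets were not tested.

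The receptors of Aurora kinases among the tested kelch adaptors were called in no comparison. Klhl9 and Klhl21, which act on Aurora B in human cells, had log2 fold changes of 0.03 and -0.16 with Ube2m shRNA and 0.16 and -0.26 with Ube2f shRNA. Klhl18, which acts on Aurora A, averaged 218 ± 21.7 with Ube2m shRNA, 257 ± 15.7 with Ube2f shRNA and 304 ± 54.8 with control shRNA (SD, n = 3 each). Its Ube2m shRNA arrays lay below the control arrays, but the difference was not called (log2 fold change -0.44, 95% interval -0.80 to -0.08, limma adjusted p = 0.121). Klhl13, which works with KLHL9, was below the low-signal level and is given in the closing section.

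Klhl12, the receptor of the coat protein SEC31, had log2 fold changes of -0.30 with Ube2m shRNA and -0.18 with Ube2f shRNA. Klhl20, the receptor of PML and DAPK1 in human cells, had -0.21 and 0.06. Klhl24, the receptor of keratin 14, had -0.10 and -0.13, and Klhl25, the receptor of the translation repressor 4E-BP1, had -0.39 and -0.01. Kbtbd2, which controls the p85α subunit of PI3-kinase in mice, had 0.34 and 0.20, and its Ube2m shRNA arrays lay above all control arrays. Klhl5, Klhl8 and Klhl26 had -0.07, -0.53 and -0.13 with Ube2m shRNA and -0.08, -0.01 and -0.26 with Ube2f shRNA. None of these values passed the test, and adjusted p-values of the uncalled kelch adaptors, Klhl7 included, were 0.0805 or more with Ube2m shRNA and 0.222 or more with Ube2f shRNA (limma). Kbtbd2 passed the threshold with Ube2m shRNA without Ube2f replicate 3, with replicate number as a block and with replicate 3 as a term. Klhl8 did so with replicates 1 and 2 alone. For Klhl5 the call depended on the probe sets used: with its 2 probe sets averaged it passed the threshold with Ube2m shRNA (log2 fold change 0.81, adjusted p = 0.0162) and between the knockdowns (0.60, adjusted p = 0.0403), where the second, with a mean signal of 25.7, gave 1.70.

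**Figure D2:**
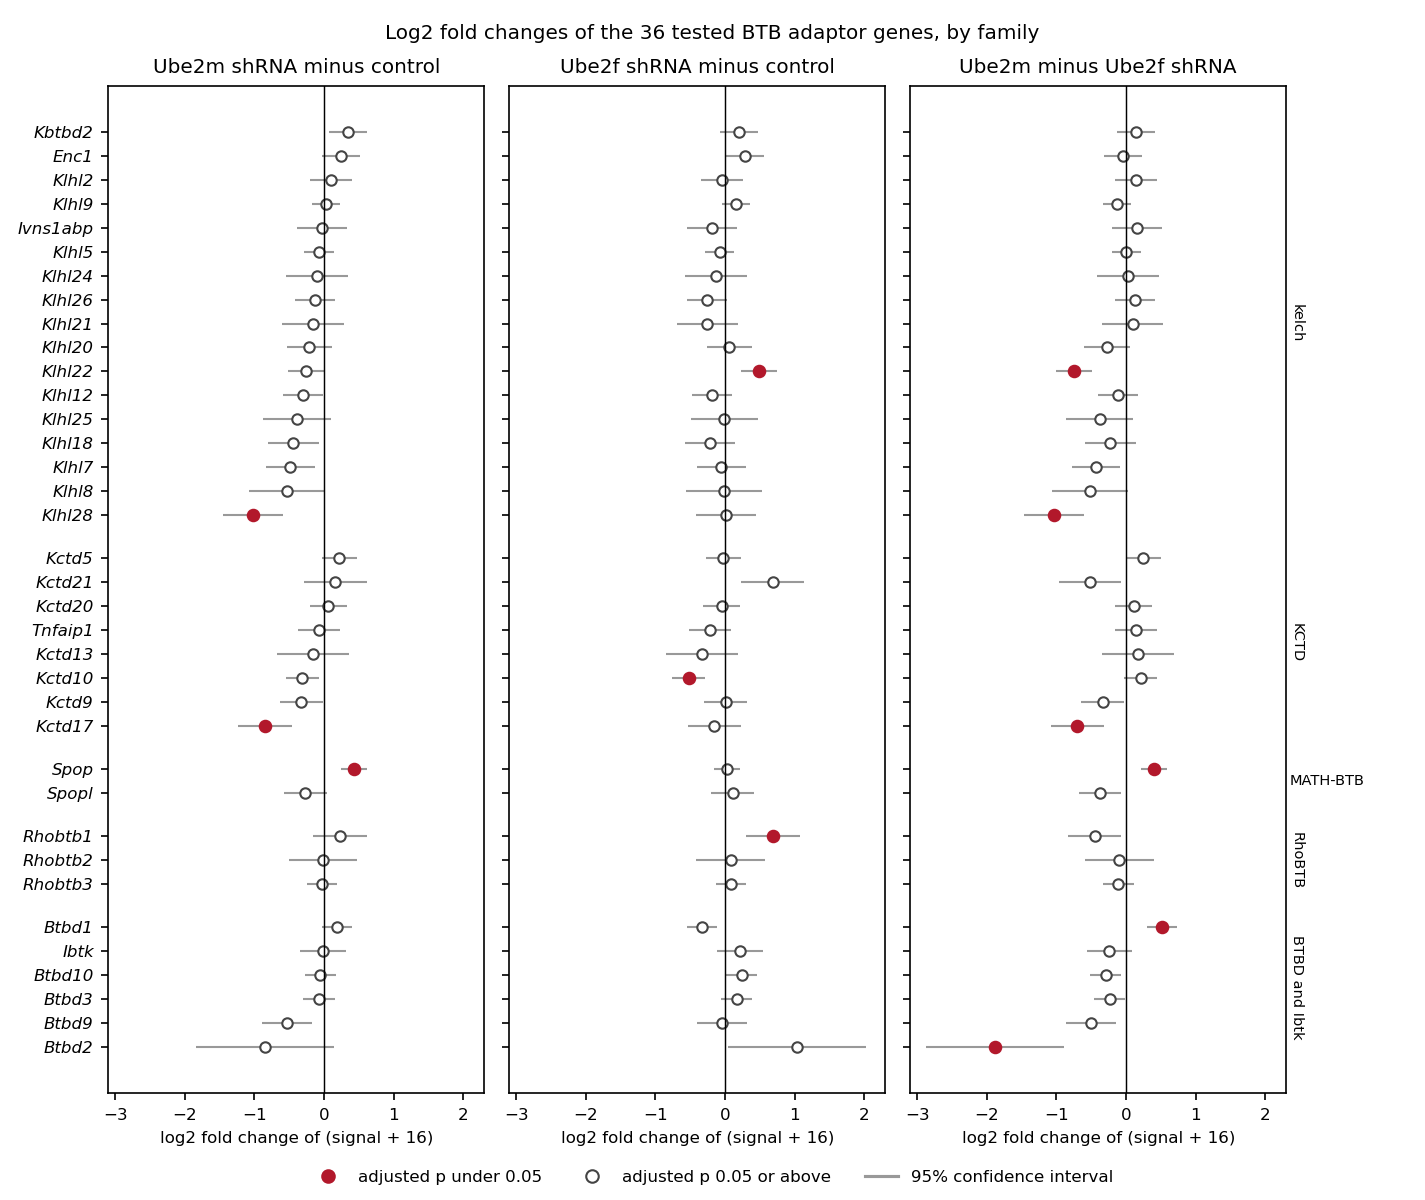
Log2 fold changes of (signal + 16) of the 36 tested adaptors by family (x axis), with 95% confidence intervals from the fit as lines, for each shRNA set against control and for Ube2m shRNA set against Ube2f shRNA. Filled points have an adjusted p under 0.05, 3, 3 and 6 in the panels, and Btbd2 has the widest interval in each.

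The KCTD proteins pair a BTB domain with divergent carboxy-terminal parts. Of 11 listed, 8 were tested. Kctd3 and Kctd11 had no probe set assigned to 1 gene, and the single probe set of Kctd12 is shared with a microRNA gene and was not used. KCTD10, KCTD13 and TNFAIP1 form the BACURD group, which brings the small GTPase RhoA to cullin 3. Kctd10 gave signals of 2966, 2743 and 2914 with Ube2m shRNA, 2336, 2666 and 2447 with Ube2f shRNA and 4052, 3244 and 3474 with control shRNA. Every control array lay above the 6 others, and the Ube2m shRNA arrays above the Ube2f shRNA arrays. Kctd10 fell with Ube2f shRNA to 69.2% of the control mean (log2 fold change -0.52, SE 0.11, limma adjusted p = 0.0153), at -0.54 on the log2 scale in replicates 1 and 2 and -0.50 in replicate 3. With Ube2m shRNA its log2 fold change was -0.31 (95% interval -0.55 to -0.08, limma adjusted p = 0.0894), and the difference between the knockdowns did not pass the test (0.21, limma adjusted p = 0.224).

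The Kctd10 call was lost without control replicate 1, the array with the high beta-actin ratio (log2 fold change -0.43, adjusted p = 0.0562), without Ube2f replicate 1 (log2 fold change -0.48, adjusted p = 0.0868), and when that ratio entered the model (log2 fold change -0.44, adjusted p = 0.0778). It was also lost with median centring (log2 fold change -0.59, adjusted p = 0.119). The other BACURD genes were not called. Kctd13 had log2 fold changes of -0.16 with Ube2m shRNA and -0.33 with Ube2f shRNA. Tnfaip1 averaged 6072 ± 881 with Ube2m shRNA, 5495 ± 899 with Ube2f shRNA and 6340.2 ± 293 with control shRNA (SD, n = 3 each). The other Tnfaip1 probe sets, at mean signals of 5034 and 2197, gave log2 fold changes of -0.30 and -0.44 with Ube2m shRNA and -0.33 and -0.59 with Ube2f shRNA. On both of them all arrays of either shRNA lay below all control arrays.

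KCTD17 acts on trichoplein, a protein that restrains the formation of primary cilia, as known from human cells. Kctd17 gave signals of 744, 563 and 925 with Ube2m shRNA, 1104, 1152 and 1336 with Ube2f shRNA and 1627, 1196 and 1202 with control shRNA. Every Ube2m shRNA array lay below the other 6. Kctd17 fell with Ube2m shRNA to 55.4% of the control mean (log2 fold change -0.85, SE 0.18, limma adjusted p = 0.0111), at -1.09 on the log2 scale in replicates 1 and 2 and -0.37 in replicate 3. With Ube2f shRNA it was not called (log2 fold change -0.15, SE 0.18, limma adjusted p = 0.69), and it was lower with Ube2m shRNA than with Ube2f shRNA (log2 fold change -0.70, SE 0.18, limma adjusted p = 0.0178).

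The Kctd17 call against control was lost without control replicate 1 (log2 fold change -0.71, adjusted p = 0.0568), without Ube2m replicate 2 (log2 fold change -0.67, adjusted p = 0.0538), and when the beta-actin ratio entered the model (log2 fold change -0.72, adjusted p = 0.0571). Its call between the knockdowns was lost without Ube2m replicate 2 (log2 fold change -0.52, adjusted p = 0.0834) and without Ube2f replicate 3 (log2 fold change -0.62, adjusted p = 0.0514). Kctd17 has 1 probe set.

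KCTD21 recruits the histone deacetylase HDAC1. Kctd21 gave signals of 165, 136 and 158 with Ube2m shRNA, 233, 237 and 208 with Ube2f shRNA and 135, 100.3 and 178 with control shRNA. The Ube2f shRNA arrays lay above all 6 others, and the difference from control was not called (log2 fold change 0.68, 95% interval 0.24 to 1.13, limma adjusted p = 0.0801). It passed the threshold without control replicate 3 (log2 fold change 0.87, adjusted p = 0.037) and with replicates 1 and 2 alone (log2 fold change 0.92, adjusted p = 0.0296). It also passed with replicate number as a block and with replicate 3 as a term. Replicate 3 gave 0.21. Kctd5, which acts on G protein βγ subunits, had log2 fold changes of 0.22 with Ube2m shRNA and -0.03 with Ube2f shRNA. Kctd9 had -0.33 and 0.01, and Kctd20 0.06 and -0.05. None of these passed the test. Kctd9 was called with Ube2m shRNA when replicate 3 entered as a term.

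Rhobtb1, Rhobtb2 and Rhobtb3 were all tested. Rhobtb1 gave signals of 216, 198 and 239.6 with Ube2m shRNA, 257, 304 and 356 with Ube2f shRNA and 178, 158 and 215 with control shRNA. The Ube2f shRNA arrays lay above all 6 others, and the Ube2m shRNA and control arrays overlapped. Rhobtb1 rose with Ube2f shRNA to 166% of the control mean (log2 fold change 0.69, SE 0.18, limma adjusted p = 0.045), at 0.69 on the log2 scale in replicates 1 and 2 and 0.68 in replicate 3. It was not called with Ube2m shRNA (log2 fold change 0.23, SE 0.18, limma adjusted p = 0.464) or between the knockdowns (log2 fold change -0.45, SE 0.18, limma adjusted p = 0.111). Between the knockdowns it passed the threshold only with replicate 3 as a term.

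The Rhobtb1 call was lost without any one of 7 arrays, all but control replicate 3 and Ube2m replicate 3, with log2 fold changes of 0.57 to 0.80 and adjusted p of 0.0676 to 0.119 in those fits. It was also lost with median centring (log2 fold change 0.62, adjusted p = 0.0849) and when its 2 probe sets were averaged (log2 fold change 0.47, adjusted p = 0.211). The second, dimmer probe set gave 0.26. Rhobtb2 and Rhobtb3 had log2 fold changes of -0.02 and -0.03 with Ube2m shRNA and 0.08 and 0.08 with Ube2f shRNA, with adjusted p-values of 0.703 or more in both comparisons (limma).

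**Figure D3:**
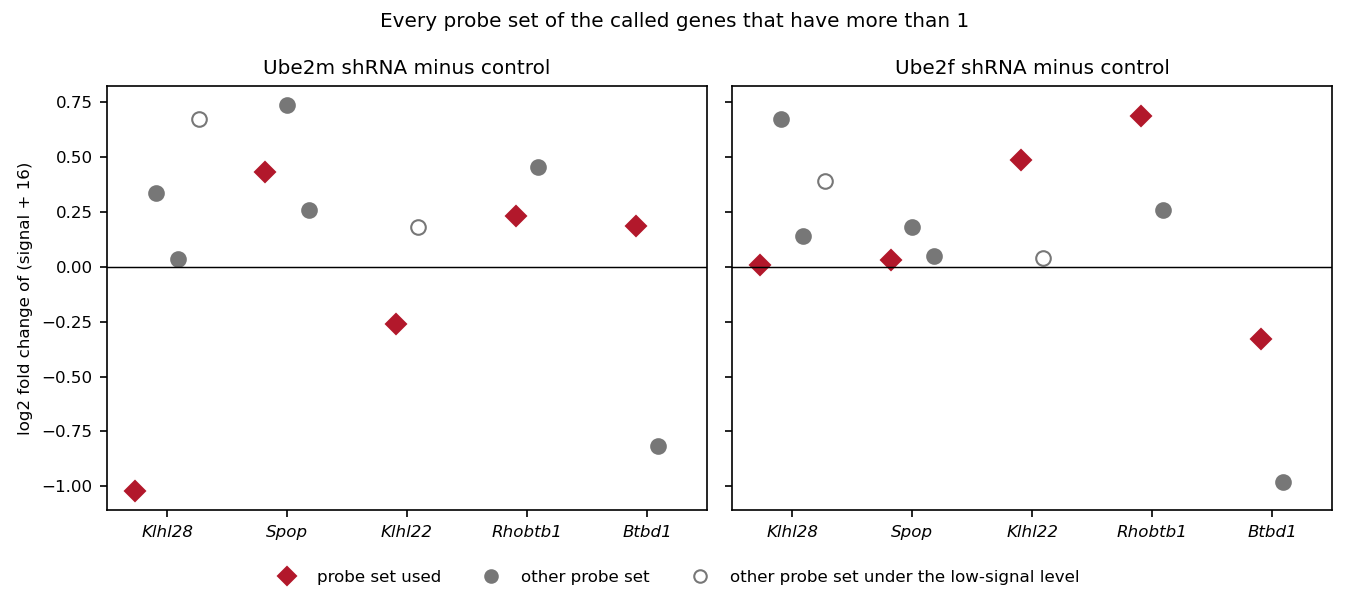
Log2 fold changes of (signal + 16) against control (y axis) for every probe set of the 5 called adaptors that have more than 1, with Ube2m shRNA at left and Ube2f shRNA at right. Diamonds are the probe sets used and open circles those under the low-signal level. The 3 Spop probe sets lie above 0 with Ube2m shRNA, whereas the used Klhl28 probe set, at -1.02, lies apart from the other 3.

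BTBD1 and BTBD2 are close relatives that bind DNA topoisomerase I. Btbd1 gave signals of 2607, 2738 and 2609 with Ube2m shRNA, 1923, 1772 and 1844 with Ube2f shRNA and 2462, 2429 and 2099 with control shRNA. The 3 groups did not overlap: the Ube2m shRNA arrays were highest, then the control arrays, then the Ube2f shRNA arrays. Neither shRNA gave a call against control (log2 fold changes 0.19 with Ube2m shRNA, limma adjusted p = 0.273, and -0.33 with Ube2f shRNA, limma adjusted p = 0.0808). Without control replicate 3 the second of these passed the threshold (log2 fold change -0.40, adjusted p = 0.0492). It also passed with replicate number as a block, with replicate 3 as a term and with replicates 1 and 2 alone. Btbd1 was higher with Ube2m shRNA than with Ube2f shRNA (log2 fold change 0.52, SE 0.10, limma adjusted p = 0.00404), at 0.53 in replicates 1 and 2 and 0.50 in replicate 3. That call held without each of the 9 arrays in turn (adjusted p at most 0.0271). It was lost with median centring (log2 fold change 0.50, adjusted p = 0.111) and with a dim second probe set averaged in (log2 fold change 0.34, adjusted p = 0.377).

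Btbd2 stood the other way. Its signals were 89.3, 64.3 and 37.7 with Ube2m shRNA, 255, 360.5 and 209.9 with Ube2f shRNA and 203, 203 and 39.7 with control shRNA. Btbd2 was lower with Ube2m shRNA than with Ube2f shRNA (log2 fold change -1.89, SE 0.46, limma adjusted p = 0.0145), at -1.80 in replicates 1 and 2 and -2.07 in replicate 3. This was the adaptor with the largest fold change and the largest standard error, and all 3 Ube2m shRNA arrays lay below all 3 Ube2f shRNA arrays. Control replicate 3 was far dimmer than the other control arrays, and neither shRNA gave a call against control (-0.85 with Ube2m shRNA, limma adjusted p = 0.277, and 1.04 with Ube2f shRNA, limma adjusted p = 0.225). Against control, Ube2f shRNA gave 0.54 in replicates 1 and 2 and 2.02 in replicate 3, and Ube2m shRNA gave -1.25 and -0.05. Without Ube2f replicate 2 the call between the knockdowns was lost (log2 fold change -1.69, adjusted p = 0.0643). Against control, Btbd2 was called with Ube2m shRNA without control replicate 3 and with replicates 1 and 2 alone. With Ube2f shRNA it was called with replicate number as a block and with replicate 3 as a term.

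BTBD9 is known from a human locus associated with restless legs syndrome. Btbd9 gave signals of 174, 201 and 196 with Ube2m shRNA, 274, 279 and 271 with Ube2f shRNA and 236, 276 and 345 with control shRNA. The Ube2m shRNA arrays lay below all 6 others, without a call against control (log2 fold change -0.54, 95% interval -0.89 to -0.18, limma adjusted p = 0.0621). It passed the threshold under quantile normalization (log2 fold change -0.58, adjusted p = 0.046) and without the intensity trend (log2 fold change -0.54, adjusted p = 0.0466). It also passed with replicate number as a block and with replicate 3 as a term. Its other 2 probe sets gave -0.46, with overlap of the control arrays, and -1.07, the latter on a probe set below the low-signal level on average. With Ube2f shRNA the log2 fold change was -0.04.

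Btbd3, which guides dendrites in the mouse cortex, had log2 fold changes of -0.07 with Ube2m shRNA and 0.17 with Ube2f shRNA. Ibtk, which encodes an inhibitor of Bruton's tyrosine kinase, had -0.02 and 0.22, and Btbd10 -0.05 and 0.24. None of these passed the test.

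Set against each other, the knockdowns gave 6 calls without a term for replicate number (Btbd1, Btbd2, Kctd17, Klhl22, Klhl28 and Spop). The replicate 3 arrays of these groups, and that of the control group, deviated together from their group means. Numbers 1 and 2 were not shown to pair the arrays. With replicate number as a block, 10 of 36 adaptors were called (27.8%, where 23.5% of all genes were). The 4 added calls were lower with Ube2m shRNA: Btbd9 (log2 fold change -0.50, limma adjusted p = 0.0432), Klhl7 (-0.43, adjusted p = 0.0280), Kctd9 (-0.34, adjusted p = 0.0461) and Btbd10 (-0.29, adjusted p = 0.0262). Without the block, Btbd9 also passed the threshold with only these groups fitted, without the intensity trend, and without control replicate 1 or control replicate 3. Klhl7 also did so without Ube2f replicate 2.

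In all, 8 of the 36 tested adaptors were called in at least 1 comparison by the fit without the block, and 28 in none. Among the 28, log2 fold changes ran from -0.54 (Btbd9) to 0.34 (Kbtbd2) with Ube2m shRNA and from -0.33 (Kctd13) to 0.68 (Kctd21) with Ube2f shRNA. Between the knockdowns they ran from -0.52 (Kctd21) to 0.25 (Kctd5). The 95% interval lay within a 2-fold change in either direction for 27 of the 28 in each comparison. The exceptions were Klhl8 with Ube2m shRNA (-1.07 to 0.02) and between the knockdowns (-1.06 to 0.02), and Kctd21 with Ube2f shRNA (0.24 to 1.13). A missed threshold does not show that the levels were equal.

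**Figure D4:**
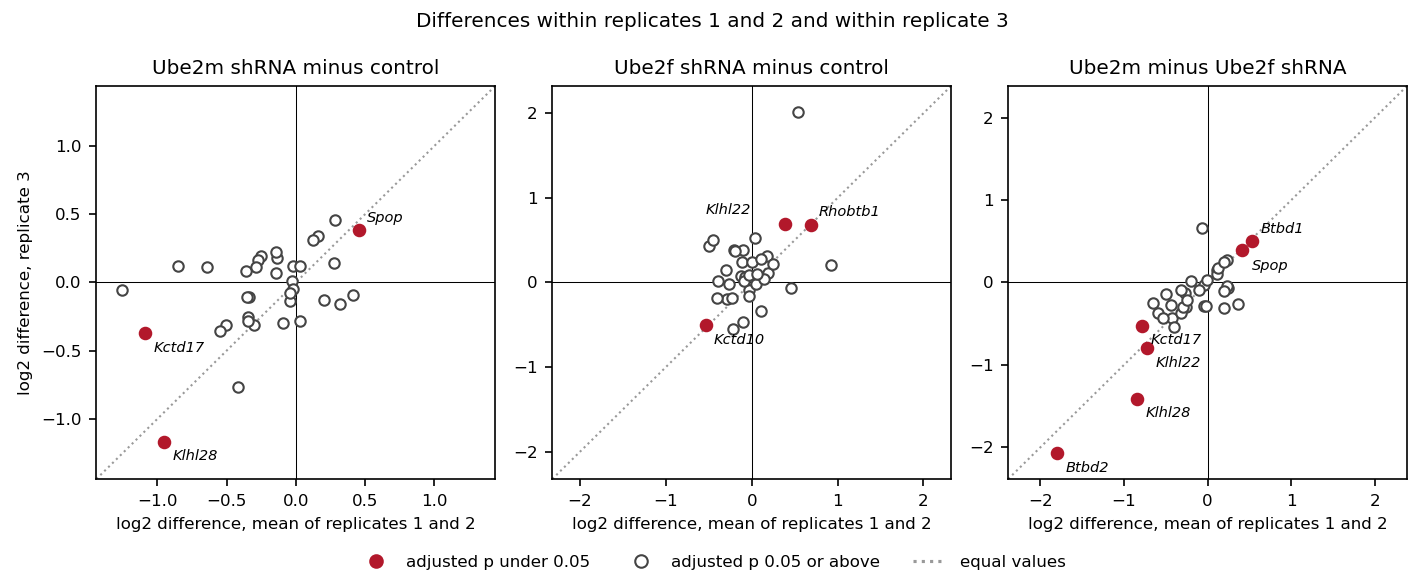
Log2 difference of each tested adaptor over replicates 1 and 2 (x axis) and in replicate 3 (y axis), with 1 panel per comparison and a dotted line of equal values. The filled points, adaptors called by the fit to all arrays with replicate 3 included, lie in the quadrants of equal sign. The lone open point at the top of the Ube2f shRNA panel is Btbd2, at 0.54 and 2.02.

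Replicate 3 had the direction of replicates 1 and 2 for 21 of 36 adaptors (58.3%) with Ube2m shRNA, where 65.2% of all genes tested did. With Ube2f shRNA it was also 21 (58.3%, against 63.0% of all genes), and between the knockdowns 28 (77.8%, against 76.5%). The called adaptors, 3, 3 and 6 in these comparisons, had the same direction in both. Their calls were made with replicate 3 included, which favours equal direction, so this is a description and not independent support.

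Cul3, the scaffold that these adaptors join, was called in no comparison. It averaged 3913 ± 227 with Ube2m shRNA, 4140.0 ± 371 with Ube2f shRNA and 3977 ± 273 with control shRNA (SD, n = 3 each), with log2 fold changes of -0.02 (95% interval -0.25 to 0.20) and 0.06 (-0.17 to 0.28). Nedd8 had -0.03 and -0.01, and Rbx1 was below the low-signal level. Of 26 listed genes of cullin 3, the NEDD8 cascade and the COP9 signalosome, 24 were tested. With Ube2m shRNA 0 rose and 3 fell (12.5%, where 9.71% of all genes were called). These were Cops7a, a subunit of the COP9 signalosome that removes NEDD8 from cullins (log2 fold change -0.66, SE 0.10, limma adjusted p = 0.00188), Dcun1d2, which promotes cullin neddylation (log2 fold change -0.45, SE 0.10, limma adjusted p = 0.0192), and Rnf7, which encodes RBX2 (log2 fold change -0.48, SE 0.13, limma adjusted p = 0.0363). With Ube2f shRNA, Cops7a (log2 fold change -0.68, SE 0.10, limma adjusted p = 0.00218) and the targeted Ube2f itself fell (8.33%, where 5.19% of all genes were called). Ube2f was the only gene of the list called between the knockdowns (4.17%, against 15.8% of all genes). The Cops7a calls held without each array in turn, whereas Dcun1d2 was lost without any one of 4 arrays (adjusted p up to 0.0924) and Rnf7 without any one of 5 (up to 0.114). Averaging all probe sets of a gene ended the calls of Dcun1d2 (log2 fold change -0.29, adjusted p = 0.224), of Rnf7 (log2 fold change -0.41, adjusted p = 0.0838) and of Cops7a with Ube2f shRNA (log2 fold change -0.42, adjusted p = 0.0647), and median centring those of Dcun1d2 and Rnf7.

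Of 57 other BTB genes listed, 30 were tested. Keap1, the adaptor that targets the transcription factor NRF2, had log2 fold changes of -0.02 with Ube2m shRNA and 0.02 with Ube2f shRNA and was not called. With Ube2m shRNA against control 1 was called higher and 5 fell (20.0%, where 9.71% of all genes were called). The 1 is Klhl30, which averaged 226 ± 57.1 with Ube2m shRNA, 27 ± 21.8 with Ube2f shRNA and 39.8 ± 10.7 with control shRNA, the last 2 below the low-signal level (SD, n = 3 each). It passed the filter only through its Ube2m shRNA arrays, so it had to differ, and its levels are a description. The 20.0% counts it. Klhl29, also dim, fell (log2 fold change -1.13, SE 0.20, limma adjusted p = 0.0052), a call that held without each array in turn. Klhl15 (-1.12), Ipp (-0.63), Kctd15 (-0.45) and Btbd7 (-0.43) also fell, and each of these 4 calls was lost without some single arrays, from 4 arrays for Ipp to 7 for Klhl15 and Kctd15 (adjusted p up to 0.17). Klhl15 averaged 46.6 ± 15.4 with Ube2m shRNA, itself below the low-signal level, 84.2 ± 40.2 with Ube2f shRNA and 118 ± 3.4 with control shRNA (SD, n = 3 each). With all probe sets averaged, Klhl15 (log2 fold change -0.22, adjusted p = 0.624), Btbd7 (log2 fold change -0.17, adjusted p = 0.708) and Kctd15 (log2 fold change -0.45, adjusted p = 0.0632) were not called. Median centring ended the calls of Ipp, Kctd15 and Btbd7.

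With Ube2f shRNA 1 of these 30 was called (3.33%, where 5.19% of all genes were), Klhl17 (log2 fold change 0.56, SE 0.14, limma adjusted p = 0.0394), a call lost without any one of 7 arrays (adjusted p up to 0.153), with all probe sets averaged (log2 fold change 0.40, adjusted p = 0.241) and with median centring. Between the knockdowns 1 was called higher, again Klhl30, and 8 were lower with Ube2m shRNA (30.0%, where 15.8% of all genes were called). The 30.0% counts Klhl30, which had to differ here too. Klhl29 (-1.10), Ipp (-0.78), Klhl17 (-0.62), Kctd15 (-0.60), Kbtbd3 (-0.67), Kctd2 (-0.61), Kctd6 (-0.52) and Lztr1 (-0.46) were lower. The calls of Klhl29, Ipp, Klhl17 and Kctd15 held without each array in turn. Those of Kbtbd3, Kctd2, Kctd6 and Lztr1 were lost without any one of 7, 6, 5 and 6 arrays. Averaging probe sets ended the calls of Kctd2 (log2 fold change -0.25, adjusted p = 0.497) and Lztr1 (log2 fold change -0.39, adjusted p = 0.0537). Median centring left only those of Klhl29 and Ipp among these 8.

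Of 42 genes listed because their proteins have been linked to cullin 3 ligases, 36 were tested. Neither Nfe2l2, which encodes NRF2 (-0.11 with Ube2m shRNA and -0.11 with Ube2f shRNA), nor Rhoa (-0.02 and 0.10) was called. With Ube2m shRNA 1 rose and 2 fell (8.33%, where 9.71% of all genes were called). Pdcd4, a translation inhibitor, rose (log2 fold change 0.55, SE 0.15, limma adjusted p = 0.0325), and Macroh2a1, a histone variant (log2 fold change -0.47, SE 0.11, limma adjusted p = 0.0192), and Pml, the scaffold of a nuclear body (log2 fold change -0.53, SE 0.13, limma adjusted p = 0.0267), fell. These 3 calls were lost without any one of 5, 4 and 4 arrays. Pml was not called with all probe sets averaged (log2 fold change -0.09, adjusted p = 0.898), and median centring ended the calls of Pml and Pdcd4. With Ube2f shRNA 1 rose and 1 fell (5.56%, against 5.19%). Pdcd4 rose (log2 fold change 0.93, SE 0.15, limma adjusted p = 0.00303) and Nuak1, which encodes a protein kinase, fell (log2 fold change -0.72, SE 0.13, limma adjusted p = 0.00607), and both calls held without each array in turn.

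Between the knockdowns 4 of these genes were higher and 1 was lower with Ube2m shRNA (13.9%, against 15.8% of all genes). Nuak1 (0.70), Ccne1, which encodes cyclin E1 (0.65), Plk1, a mitotic kinase (0.48), and Acly, which makes cytosolic acetyl-CoA (0.39), were higher. Gli2, a transcription factor of Hedgehog signalling, was lower (-0.86). The calls of Nuak1 and Plk1 held without each array in turn, and those of Ccne1, Gli2 and Acly were lost without any one of 2, 3 and 5 arrays. Acly was not called with all probe sets averaged (log2 fold change 0.27, adjusted p = 0.274), and median centring ended the calls of Acly and Plk1. Transcript levels say nothing of how much of these proteins was ubiquitinated.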

How the data were processed

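The deposited values are linear signal intensities of an Affymetrix mouse array, computed by the authors with MAS5 per the submitters' processing notes (version not given in the sources used here). Total RNA was labelled with biotin per the labels' protocols. Of 45101 probe sets, 64 are controls, 932 name several genes, 9160 name none and 34945 name 1 gene in the platform annotation. Each gene was represented by its probe set with the highest mean log2(signal + 16) over the 9 arrays, and genes under the low-signal level (log2 of 6.12) were left out. limma 3.58.1 (R 4.3.3; lmFit, contrasts and eBayes; the prior variance followed the intensity, with 6.55 prior degrees of freedom) was fitted to all 9 arrays with 1 mean per group. p-values are two-sided and Benjamini-Hochberg adjusted over 10613 genes, and the number of arrays, 3 per group, limits the precision. The code was tested on simulated data.

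The labels call the arrays biological replicates and do not say whether they came from separate transductions, so p-values measure the spread between these samples, which may be technical. Whether replicate numbers pair the arrays was checked by correlating deviations from the group means. Same-numbered arrays gave r = 0.201, 0.211 and 0.557 between Ube2m shRNA and Ube2f shRNA. Ube2m replicate 1 gave 0.276 with Ube2f replicate 2, and Ube2m replicate 2 gave 0.192 with Ube2f replicate 1. Numbers 1 and 2 are thus not shown to pair these arrays. Replicate 3 of either group gave -0.387 to -0.307 with other numbers of the other group. The blocked count is given there as an alternative. Against control, same-numbered arrays gave -0.0046, 0.185 and 0.317 for Ube2m shRNA and 0.0148, 0.157 and 0.349 for Ube2f shRNA. Replicate 3 of either shRNA gave -0.324 to -0.063 with control replicates 1 and 2. Control replicate 3 gave -0.226 to -0.181 with replicates 1 and 2 of either shRNA. The replicate 3 arrays of all groups thus deviated together, and the main fit has no term for this. Pairing by numbers 1 and 2 was not taken as shown here either.

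The members and the gene lists were chosen with earlier results of these data known, so no count over them is independent support. Adaptors past the threshold in any comparison, and the 5 with the smallest p in each, are given array by array, and genes of the other lists are named where they passed the threshold or were named beforehand. The alternatives were other constants (1 and 64), filters, probe set rules, scalings, fits and arrays left out in turn. Promoter sequences are from RefSeq, and those of Btbd1, Btbd9, Enc1, Kctd9, Kctd17, Klhl8, Klhl24, Rhobtb2 and Spopl were not used here.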

Additional observations from a re-analysis of the deposited data

Results flagged for a closer look

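Klhl13, which encodes the partner of KLHL9, was left out of the test for its low signal and was picked out because its arrays with either shRNA lay above all control arrays. Its signals were 20.3, 23.8 and 33.2 with Ube2m shRNA, 28.6, 20.5 and 36.6 with Ube2f shRNA and 6.9, 5.4 and 7.8 with control shRNA. The means were 25.8 with Ube2m shRNA, 28.6 with Ube2f shRNA and 6.70 with control shRNA (SD 6.7, 8.1 and 1.2, n = 3 each), all under the low-signal level of 53.8. Tested without the filter, the log2 fold changes against control were 0.87 with Ube2m shRNA (limma adjusted p = 0.130) and 0.96 with Ube2f shRNA (adjusted p = 0.129), which are not called, and with a constant of 64 they shrank to 0.34 and 0.39. Both comparisons share the 3 control arrays. The difference between the knockdowns was -0.09 (adjusted p = 0.926).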

How the results depend on the processing

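The counts of called adaptors stayed within 1.5 times their reported size (3, 3 and 6) under the other constants, the filters and quantile normalization. With Ube2m shRNA against control, 7 adaptors were called with replicate number as a block (19.4%, with 17.6% of all genes), 8 with replicate 3 as a term (22.2%, with 20.0%) and 7 with replicates 1 and 2 alone (19.4%, with 16.5%), and leaving out 1 array gave 2 to 5. With Ube2f shRNA against control, the count was 6 with the replicate block, with replicate 3 as a term and with replicates 1 and 2 alone (16.7%, with 11.5%, 13.8% and 10.6% of all genes). It was 1 when probe sets were averaged, when the fit held the 6 arrays of these groups alone and when the beta-actin ratio entered the model (2.78%, with 2.71% and 3.30% of all genes and, in the third, 249 of 10613), and 0 by limma with arrays centred on their medians (2.09% of all genes), where 5 adaptors had an unadjusted p under 0.05. Leaving out 1 array gave 0 to 5. Between the knockdowns it was 10 with the replicate block (27.8%, with 23.5%) and 11 with replicate 3 as a term (30.6%, with 25.6%), and 5 to 7 without 1 array. Klhl28 with Ube2m shRNA against control reversed to 0.0061 (adjusted p = 0.991) with all probe sets averaged, where its dimmer probe sets enter the mean. The causes of the other changes were not tested. The replicate block kept all calls of the 3 comparisons. It rests on numbers that are not shown to pair the arrays, and not every array correlated best with its own number. Over all genes tested, the calls numbered 1031, 551 and 1672. They ranged over the alternatives from 388 (without Ube2m replicate 2) to 2118, from 195 (without Ube2f replicate 1) to 1461, and from 868 (median centring) to 2714, each highest with replicate 3 as a term. Precision is limited by 3 arrays per group and, for dim adaptors such as Btbd2 and Klhl13, by signals close to the low-signal level.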
